A study of Mus musculus with 10 samples.

Results

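The genes of mouse chromosomes 6 and 14 were examined along their position in 4T1 breast tumours with and without a gene knockout. The members were the protein-coding genes of these chromosomes (GENCODE M21, GRCm38) whose mean log2(normalized count + 1) over all libraries was above 6. There were 922 of them, 549 on chromosome 6 and 373 on chromosome 14, of 11066 nuclear protein-coding genes past the same level and of 18047 genes in the table. The chromosomes were chosen for their difference between knockout (KO) and wild-type (WT) tumours, so every KO against WT value below, calls and p-values of the gene-wise fits included, is a description of these libraries and supports nothing about the choice of chromosomes. Just outside the level lay Rem2 at 5.98 and Tmem150a at 5.996, and just inside lay Pradc1 at 6.003 and Gzmd at 6.01. Of the 1181 protein-coding genes of both chromosomes in the table, 922 passed. Of these, 14 were over the level in the KO mean only and 10 in the WT mean only.

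The KO group held 5 libraries from tumours of cells with a gene knocked out and the WT group 5 libraries from wild-type tumours, all of 4T1 cells, a mammary carcinoma line of BALB/c origin, implanted into BALB/c mice and grown for 3 weeks. RNA came from frozen sections of whole tumours, which also hold the host's immune, vascular and stromal cells. Whether the KO cells were 1 clone or a pool, the age and sex of the hosts and the site of implantation are not given in the sources used here. Nothing in the labels ties libraries to separate animals, so the spread between libraries may be partly technical. Recovered reads in genes ranged from 8609756 to 19934428 per library.

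Several libraries stood apart in ways the genotype does not define. The names of KO5, WT1, WT2, WT3 and WT4 carry the prefix RESUB, whose meaning is not given, and WT2 and WT5 share the library number 170. KO5 is the only KO library with the prefix and WT5 the only WT library without it, so prefix and genotype are largely confounded. Summed keratinocyte markers ran from 20.95 to 106.3 normalized counts in KO and from 64.8 to 7643 in WT, with the highest sums in WT3, WT5 and WT2. Summed skeletal muscle markers reached 96295 in WT2 against at most 9567 in any other library. The deviations of a library also followed gene GC content, with a correlation across genes between -0.54 (WT5) and 0.63 (WT4), and transcript length, between -0.49 (KO5) and 0.55 (KO1); genes are not independent replicates, and these values describe the libraries.

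In a tumour line, a gene's RNA level depends on its own regulation, on the mix of cells in the sample and on how many copies of its chromosome the cells carry. Mouse chromosome 6 holds the natural killer gene complex, a dense run of lectin-like receptor genes, together with the Hoxa cluster and Met. Mouse chromosome 14 holds the T cell receptor alpha locus, a granzyme and mast cell protease cluster, proteasome activator genes and Rb1.

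Promoter sequences are shown for 6 members from separate places along both chromosomes, 5 of them higher and 1 lower in KO with no overlap between groups, so that their unlike starts can be read beside their values. Each is the 250 bases before the RefSeq start on GRCm38.p6, written 5′ to 3′ on the gene's strand. Capitals mark the CCAAT box (by its letters CCAAT), the GC box (GGGCGG) and the TATA box (TATAAA), each on either strand. The windows are chr6:17064899-17065148 (+ strand) for Tes, chr6:54597345-54597594 (- strand) for Fkbp14, chr6:131247363-131247612 (- strand) for Klra2, chr14:73237641-73237890 (+ strand) for Lpar6, chr14:118132766-118133015 (- strand) for Tgds and chr14:103649978-103650227 (+ strand) for Slain1.
Tes: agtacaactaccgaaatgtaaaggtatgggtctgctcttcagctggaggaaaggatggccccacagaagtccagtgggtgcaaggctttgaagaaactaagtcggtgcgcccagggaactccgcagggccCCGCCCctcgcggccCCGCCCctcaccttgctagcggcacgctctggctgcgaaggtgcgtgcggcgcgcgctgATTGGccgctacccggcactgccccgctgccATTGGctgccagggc
Fkbp14: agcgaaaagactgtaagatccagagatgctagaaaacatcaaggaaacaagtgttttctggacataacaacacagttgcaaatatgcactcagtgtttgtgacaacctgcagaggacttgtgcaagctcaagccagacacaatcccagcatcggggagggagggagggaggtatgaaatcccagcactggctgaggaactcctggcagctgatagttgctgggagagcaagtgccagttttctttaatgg
Klra2: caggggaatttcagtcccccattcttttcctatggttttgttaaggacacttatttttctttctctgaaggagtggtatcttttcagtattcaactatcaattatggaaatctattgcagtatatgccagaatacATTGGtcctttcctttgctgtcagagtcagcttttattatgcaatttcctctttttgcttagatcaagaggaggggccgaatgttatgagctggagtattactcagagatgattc
Lpar6: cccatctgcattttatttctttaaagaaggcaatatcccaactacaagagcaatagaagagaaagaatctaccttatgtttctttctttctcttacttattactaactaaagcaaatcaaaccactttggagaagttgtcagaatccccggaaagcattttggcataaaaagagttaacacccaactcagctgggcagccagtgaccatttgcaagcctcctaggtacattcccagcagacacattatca
Tgds: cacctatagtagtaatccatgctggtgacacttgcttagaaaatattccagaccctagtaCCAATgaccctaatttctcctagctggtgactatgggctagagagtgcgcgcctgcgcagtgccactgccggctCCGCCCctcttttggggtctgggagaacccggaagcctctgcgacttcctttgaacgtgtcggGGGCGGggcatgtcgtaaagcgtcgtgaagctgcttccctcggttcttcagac
Slain1: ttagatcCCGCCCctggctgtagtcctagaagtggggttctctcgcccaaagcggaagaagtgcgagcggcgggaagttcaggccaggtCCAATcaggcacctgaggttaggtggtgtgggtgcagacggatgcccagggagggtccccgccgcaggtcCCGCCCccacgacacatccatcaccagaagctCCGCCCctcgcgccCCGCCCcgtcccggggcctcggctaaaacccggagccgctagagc

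These windows ranged from 38.0% GC in Klra2 to 67.2% in Slain1. The Tes window held 2 CCAAT boxes and 2 GC boxes, the Slain1 window 1 CCAAT box and 4 GC boxes, and the Fkbp14 and Lpar6 windows held none of these letters. Over all members with a promoter entry, a CCAAT box on either strand was in 33.8% of 464 on chromosome 6, 36.7% of 281 on chromosome 14 and 36.5% of 8029 on the other chromosomes. A GC box was in 57.8%, 61.2% and 61.4%, against 32.7% of all 32851 promoters of the table. A TATA box was in 8.84%, 6.05% and 6.03%, and an E box (CACGTG) in 5.60%, 7.47% and 8.69%. The gamma-activated sequence (TTCNNNGAA), read on either strand, was in 7.54% on chromosome 6, 2.49% on chromosome 14 and 5.82% elsewhere. A match is a run of letters and not a shown binding site.

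For each gene and library, the deviation is its log2(normalized count + 1) minus its mean over the 10 libraries, minus the library's median of the same quantity over all 11066 genes. The median deviation of the chromosome 6 members was 0.12, 0.076, 0.10, 0.092 and 0.079 in KO1 to KO5. In WT1 to WT5 it was -0.083, -0.10, -0.060, -0.12 and -0.074. All KO libraries lay above all WT libraries, and the spread within a group was narrow, 0.018 (SD, n = 5) in KO and 0.025 (SD, n = 5) in WT. The difference of the group means was 0.18 ± 0.014 (SE) on the log2 scale, a ratio of 1.14 (KO over WT).

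The chromosome 14 members had medians of 0.070, 0.14, 0.022, 0.085 and 0.16 in KO1 to KO5. In WT1 to WT5 they were -0.042, -0.078, -0.065, -0.28 and -0.029. The groups again did not overlap, but WT4 stood well below the other WT libraries. The means were 0.094 ± 0.054 (SD, n = 5) and -0.098 ± 0.10 (SD, n = 5), a difference of 0.19 ± 0.051 (SE) and a ratio of 1.14. Without WT4 the difference was 0.16, still without overlap.

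Of 20 chromosomes, 3 had KO medians all above the WT medians (15.0%), and chromosomes 14 and 6 had the next largest differences after chromosome 12 at 0.22 ± 0.060 (SE). The other 18 chromosomes, chromosome 12 included, ran from -0.12 to 0.22. With each library's dependence on GC content and length removed, chromosome 6 stood at 0.18 and chromosome 14 at 0.19, both without overlap, while chromosome 12 at 0.19 overlapped. After this correction chromosome 17 was also higher in KO without overlap, at 0.055, and chromosome 19 lower, at -0.11. Among the libraries with the RESUB prefix, where KO5 is the only KO library, the difference was 0.14 on chromosome 6 and 0.28 on chromosome 14. Among those without it, where WT5 is the only WT library, it was 0.16 and 0.12. Without WT2, WT3 and WT5, the libraries with the most keratinocyte RNA, it was 0.19 and 0.25.

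**Figure D1:**
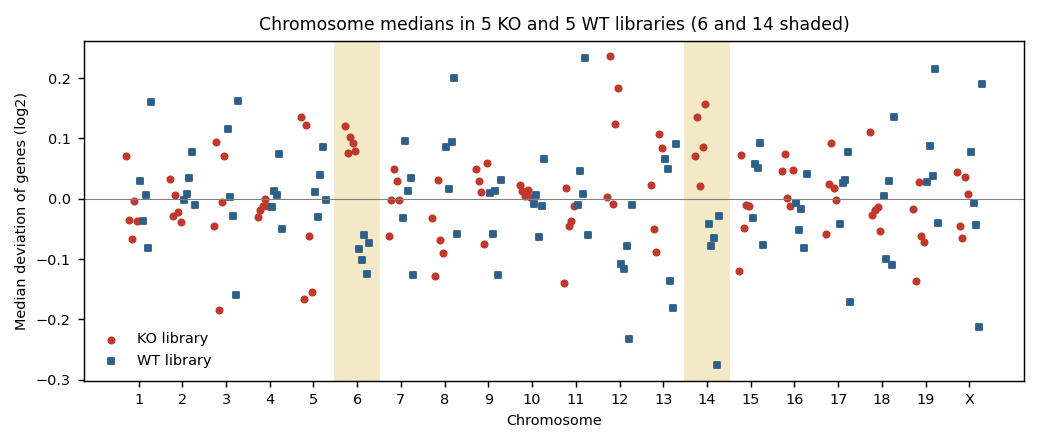
Median deviation (log2, vertical axis) of the genes of each chromosome (horizontal axis), with 1 circle for each of 5 KO libraries and 1 square for each of 5 WT libraries. On the shaded chromosomes 6 and 14 all KO circles lie above all WT squares, as they do on chromosome 12, and WT4 is the low square at -0.28 on chromosome 14.

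Along both chromosomes the differences of the 15 Mb windows were above 0 with all libraries in. All 19 windows with at least 10 members had a KO mean above the WT mean, by 0.048 to 0.27, with a median of 0.18. Of the 161 windows of the other chromosomes, 73 did, with a range of -0.18 to 0.31 and a median of -0.006. Chromosome 12, where 84.0% of genes were higher in KO, had 8 of 8 windows above 0, by 0.10 to 0.31, and chromosome 9 had 9 of 9, by 0.0002 to 0.15. Among the prefixed libraries 18 of the 19 windows were above 0, with window 7 of chromosome 6 at -0.045. Among the others 16 were, with window 1 of chromosome 6 at -0.036 and windows 7 and 8 of chromosome 14 at -0.032 and -0.0082. In 7 of the 19 windows every KO library was above every WT library, and in 0 below. Over all 180 windows 4.44% were of this kind and 0.556% had KO lower, and over the 161 others each direction had 0.621%. Since this contrast chose the chromosomes, these shares are given for scale only. Of the 30 windows with the highest differences in the genome, 18 were on these chromosomes.

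On chromosome 6 the highest window was chr6:15000001-30000000, which holds Met, Cav1 and Tes. Its 33 members had medians of 0.11, 0.15, 0.024, 0.18 and 0.13 in KO1 to KO5, and of -0.013, -0.10, -0.21, -0.40 and -0.020 in WT1 to WT5. KO libraries were all higher, WT4 was the lowest, and the difference was 0.27 ± 0.077 (SE). Without WT4 it was 0.23 and the groups overlapped, as they did at 0.25 without the genes of the lists described below. The window chr6:120000001-135000000, which holds the natural killer gene complex, Gapdh and Ccnd2, had medians of 0.048, 0.12, 0.14, 0.19 and 0.17 in KO and of -0.19, -0.0053, -0.074, -0.098 and -0.21 in WT. Of its 92 members 72 were higher in KO, and the difference was 0.25 ± 0.045 (SE), with WT5 and WT1 the lowest libraries. Without KO5 it was 0.23 and the groups overlapped.

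The window chr6:105000001-120000000 ran from 0.038 to 0.14 in KO and from -0.088 to -0.026 in WT, the smallest WT spread of the 19 windows (SD 0.026, n = 5), with a difference of 0.15 ± 0.025 (SE). With the mean of its 64 members in place of their median the groups overlapped at 0.14. The other 7 windows of chromosome 6 overlapped, with differences of 0.048 to 0.23. The lowest was chr6:90000001-105000000, where KO1 was at 0.23 and KO5 at -0.20, so that the KO libraries spanned all WT libraries. There the difference was 0.048 ± 0.074 (SE), and -0.0082 without KO1. It is the window of Prickle2, a member through its WT level only and so lower in KO.

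On chromosome 14 the 4 windows between positions 15000001 and 75000000 did not overlap. The most gene-rich, chr14:45000001-60000000, holds 114 members, among them the granzymes, the proteasome activators and the ribonucleases. It had medians of 0.015, 0.16, 0.059, 0.11 and 0.18 in KO1 to KO5, and of -0.045, -0.080, -0.062, -0.25 and -0.12 in WT1 to WT5. Every KO library was higher, 102 of the 114 members were higher in KO, and the difference was 0.22 ± 0.049 (SE). The windows chr14:15000001-30000000 at 0.21 ± 0.058 (SE) and chr14:30000001-45000000 at 0.23 ± 0.060 (SE) had KO1 to KO5 all above WT1 to WT5, but with GC and length removed they overlapped at 0.17 and 0.20. The latter also overlapped without KO5, at 0.18, and with a pseudocount of 10, at 0.22. The window chr14:60000001-75000000, with Lpar6 and Rb1, differed by 0.17 ± 0.040 (SE). Without the listed genes it overlapped at 0.15, and so did chr14:15000001-30000000 at 0.21 and chr14:30000001-45000000 at 0.23.

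The distal windows of chromosome 14 held 11 to 26 members each, and all 4 overlapped, with differences of 0.15 to 0.24. WT4 was the lowest library in 11 of the 19 windows of both chromosomes. The number of windows without overlap rested on single libraries: it was 11 without WT5 and 5 without KO5, where no share over all windows was taken. With GC and length removed it was 8, where the share over all windows was 6.11%, and 5 of the 7 windows named above were among them.

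**Figure D2:**
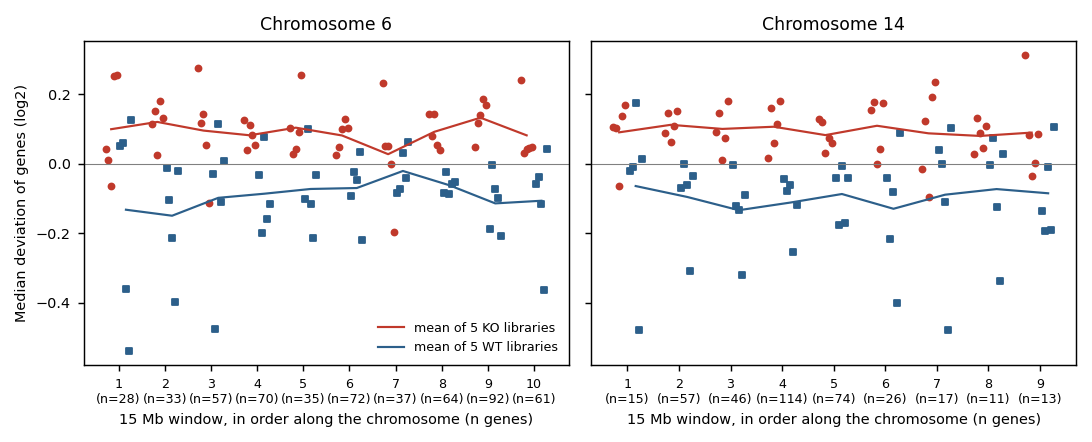
Median deviation (log2, vertical axis) of the members of each 15 Mb window in order along chromosomes 6 and 14, with circles for KO libraries, squares for WT libraries and lines through the group means. The KO line lies above the WT line in all 19 windows, by 0.048 to 0.27, and comes closest in window 7 of chromosome 6.

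Gene by gene, 750 of the 922 members had a KO mean above the WT mean (81.3%), 436 of 549 on chromosome 6 and 314 of 373 on chromosome 14, where 48.9% of all genes of the level did. The median difference was 0.19, with quartiles of 0.053 and 0.33, and -0.021 for the genes of the other chromosomes. A difference above 0.5 was seen in 91 members and below -0.5 in 19, against backgrounds of 3.68% and 4.0%. In 29 members the KO libraries were all above the WT libraries and in 2 all below, against 0.813% and 0.723% of all genes. Of these, Rerg was over the level in the KO mean only and Prickle2 in the WT mean only, so their directions were fixed. The share of members higher in KO depended on the libraries: it was 64.6% among the prefixed libraries and 67.4% among the others. For genes of the other chromosomes it was 48.1% and 49.2%, against 45.9% with all libraries.

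The gene-wise fits differed in how many members they called. In limma 0 of 922 were called at an adjusted p of 0.05, with a lowest adjusted p of 0.307, and the background was 0.00556%. At an unadjusted p under 0.05 there were 69 members higher and 10 lower, against 2.82% and 3.67% of all genes tested. The edgeR quasi-likelihood test on recovered reads called 0 members, with a lowest adjusted p of 0.256 (background 0.0% higher and 0.00556% lower). DESeq2 called 9 members, 6 higher (Arhgap22, Lpar6, Tes, Ccnd2, Klrc1 and Mgp) and 3 lower (Shisa2, Slain1 and Prickle2), against 0.145% and 0.529%. Genes below were chosen by the named-gene rule unless said otherwise.

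**Figure D3:**
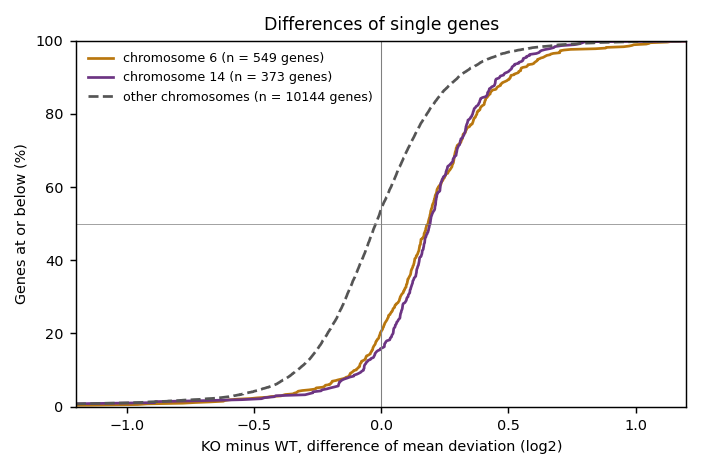
Cumulative share of genes (%, vertical axis) at or below a given difference of mean deviation (KO minus WT, log2, horizontal axis), with a solid line for chromosome 6 (549 genes), another for chromosome 14 (373 genes) and a dashed line for the other chromosomes (10144 genes). Both solid lines lie to the right of the dashed line, with medians of 0.18 and 0.19 against -0.021.

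Ccnd2 (ENSMUSG00000000184, chr6:127125162-127152193, minus strand), a D-type cyclin that drives entry into the cell cycle, had 3041, 2957, 2739, 2414 and 3176 normalized counts in KO1 to KO5. In WT1 to WT5 it had 1493, 1306, 1581, 1673 and 1894. The groups did not overlap, and the difference was 0.88 ± 0.12 (SE), with a DESeq2 adjusted p of 7.63e-05 but a limma adjusted p of 0.307. Among the prefixed libraries it was 1.04 and among the others 0.56. Tes (ENSMUSG00000029552, chr6:17065149-17105828, plus strand), a LIM-domain protein of focal adhesions, had 3153, 3070, 2693, 3412 and 3624 in KO, and 2257, 1721, 1620, 1958 and 2394 in WT. Here too all KO libraries were higher, by 0.72 ± 0.13 (SE).

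Fkbp14, an isomerase of the endoplasmic reticulum that acts on collagen, had 345.3, 490.5, 360, 468 and 548.3 in KO and 326.6, 296.9, 118.5, 163.6 and 244.8 in WT, a difference of 1.04 ± 0.29 (SE). WT1 came close to KO1, and the gene shares 208 exonic bases with Plekha8 on the opposite strand. Klra2, a lectin-like receptor of the natural killer gene complex, had 376.1, 599.3, 372.6, 523.2 and 684.5 in KO and 204.5, 382.5, 178.7, 200.6 and 375.5 in WT. Its counts touched in KO1, KO3, WT2 and WT5, while its deviations did not overlap, with a difference of 0.99 ± 0.28 (SE). Its near-identical family members make its counts uncertain.

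Rerg, a RAS-like GTPase, had 91.97 to 158.9 normalized counts in KO and 31.9 to 93.4 in WT, a difference of 1.06 ± 0.29 (SE). WT4 was the highest WT library and overlapped KO4 and KO2 in counts. The WT mean of Rerg was under the level, so it was a member through KO only and had to be higher in KO. Akr1b10, an aldo-keto reductase, differed by 0.61 ± 0.14 (SE). With GC and length removed both overlapped, at 1.02 and 0.54, and Akr1b10 also overlapped without KO3, KO4, KO5 or WT2. Cd9, a tetraspanin of cell surfaces, was at 3395 to 4723 in KO and 1707 to 3670 in WT, and Apobec1, a cytidine deaminase that edits RNA, at 1163 to 1441 and 751 to 1212. Their counts overlapped in WT4 and WT2, but their deviations did not, as in 21 members of chromosome 6 in all. With GC and length removed Cd9 overlapped at 0.48.

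On chromosome 14, Arhgap22 (ENSMUSG00000063506, chr14:33214026-33369934, plus strand), a GTPase-activating protein for Rac, had 831.9, 970.7, 1555, 937.1 and 859.1 normalized counts in KO1 to KO5. In WT1 to WT5 it had 536.1, 603.8, 621.4, 708.8 and 485.2. KO3 was the highest library by far, no WT library reached any KO library, and the difference was 0.80 ± 0.19 (SE), with a DESeq2 adjusted p of 0.037. It shares 1429 exonic bases with the antisense gene Gm15512. Lpar6 (ENSMUSG00000033446, chr14:73237895-73243294, plus strand), a receptor for lysophosphatidic acid that lies inside Rb1, had 486.6, 578.7, 624.3, 679.6 and 707.2 in KO and 424.7, 401.6, 317.5, 254.1 and 448.6 in WT. All KO libraries were higher, by 0.78 ± 0.19 (SE). Rb1 itself, named after its values were seen, was at 579.5 ± 107.6 in KO and 565.8 ± 156.6 in WT (SD, n = 5), and the genes share 408 exonic bases.

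Tgds, a sugar-nucleotide dehydratase, had 265.7, 304.8, 264.3, 400.6 and 357.1 in KO and 221.1, 246.8, 170.9, 177.4 and 173.9 in WT, a difference of 0.71 ± 0.15 (SE) with no overlap. Ttc5, a tetratricopeptide protein, differed by 0.66 ± 0.16 (SE), with KO1 the lowest KO library at 366.3 and WT5 the highest WT library at 354.5. With GC and length removed it overlapped at 0.63. Pibf1, a protein of centriolar satellites, differed by 0.62 ± 0.24 (SE) and rested in part on WT4, at 149.9 against 266.8 to 344.5 in the other WT libraries. Without WT4 the difference was 0.39. It shares 325 exonic bases with Dis3. Gm49342, a gene model sharing 718 exonic bases with Pnp, differed by 0.61 ± 0.14 (SE), overlapped at 0.48 with GC and length removed, and may share its reads with Pnp.

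A few members went the other way. Slain1 (ENSMUSG00000055717, chr14:103650228-103704907, plus strand), a protein of growing microtubule ends, had 92.3, 46.9, 98.4, 101.2 and 46.3 normalized counts in KO1 to KO5 and 156.3, 123, 178.7, 199.8 and 179.5 in WT1 to WT5. All KO libraries were lower, by a log2 difference of -1.15 ± 0.30 (SE). Prickle2, a planar cell polarity protein on chromosome 6, was at 42.8 to 60.1 in KO and 73.1 to 114.6 in WT, a difference of -0.78 ± 0.17 (SE) that overlapped once GC and length were removed. All its KO values lay under the level, so it was a member through WT only and had to be lower in KO. Shisa2, named here because DESeq2 called it, had 27.1 to 157.5 in KO and 145.1 to 439 in WT.

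Other members led the windows that did not overlap, although their own libraries did. Hilpda, a lipid droplet protein induced by low oxygen, had 148.2, 325.4, 168.7, 212.6 and 534.3 normalized counts in KO1 to KO5 and 97.5 to 159.6 in WT, with KO5 the highest. Crbn, the substrate receptor of a ubiquitin ligase, had 807.1 to 1217 in KO and 460.5 to 838.5 in WT, a difference of 0.54 ± 0.21 (SE). The ribosomal protein gene Rps24 ran from 6522 in KO1 to 15943 in KO5 and from 5592 to 12655 in WT, with WT2 the highest WT library. Ero1l, an oxidase of protein folding, differed by 0.68 ± 0.31 (SE), with KO3 and KO4 within the WT range of 826 to 1883. Fndc3a, a fibronectin-domain protein, was at 6113 ± 1579 in KO and 4047 ± 1463 in WT (SD, n = 5), with WT2 the lowest at 1784.

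**Figure D4:**
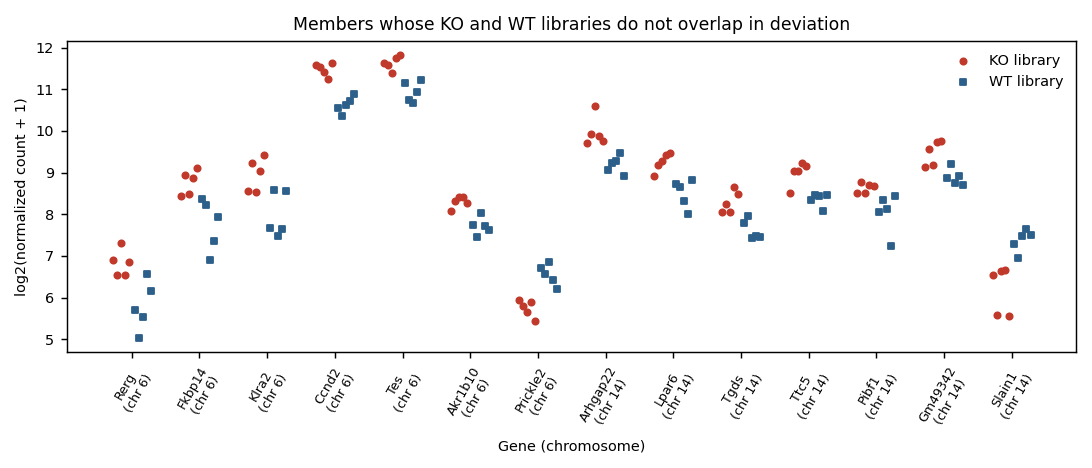
Level (log2 of normalized count plus 1, vertical axis) of the 14 members with the largest differences whose deviations do not overlap, with a circle for each KO library and a square for each WT library. Ccnd2, Tes and Arhgap22 show KO circles above every WT square, Slain1 and Prickle2 the reverse, and the levels of Rerg and Klra2 overlap. Rerg was a member through its KO mean only and Prickle2 through its WT mean only, so their directions were fixed.

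The lists below were drawn up by chromosome position and function, with earlier results of these data known, and their counts stand beside the 81.3% of all members and the median of 0.19. In the natural killer gene complex, 9 of the 23 listed genes in the table passed the level, of which Klrc1 and Cd69 were over it in the KO mean only and so had to be higher in KO. All 7 of the others were higher, with a median of 0.55 and a highest value of 1.13, and over all 9 the median was 0.61. Klrc1, an inhibitory receptor of natural killer cells, had 60.1 to 209.5 normalized counts in KO and 31.9 to 72.8 in WT, with KO5 the highest, and was under the level without KO2 or without KO5. Clec2d, a ligand of such receptors, differed by 0.55 ± 0.32 (SE) and Gabarapl1, an autophagy protein encoded within the complex, by 0.14 ± 0.32 (SE). Most of these genes have near-identical relatives in the complex.

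Among myeloid C-type lectins and complement genes of chromosome 6, KO means exceeded WT means in 11 of 11 members, and the median was 0.60. C3ar1, the receptor for a complement fragment, had 1704 to 1887 in KO and 1033 to 1638 in WT, without overlap, and differed by 0.36 ± 0.10 (SE), or by 0.29 with overlap once GC and length were removed. C1s1, a complement protease, differed by 0.47 ± 0.35 (SE), with WT2 at 1351 above all KO libraries. Clec4e, a pattern receptor of macrophages, differed by 0.97 ± 0.60 (SE), with KO1 at 71.3 and WT3 at 223.3. Of the lymphocyte coreceptor and TNF receptor genes, 5 of 7 members were higher, with a median of 0.19, and Tnfrsf1a differed by 0.0049 ± 0.20 (SE). The lowest was the macrophage scavenger receptor Cd163 at -1.14, named after its values were seen.

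Summed markers of immune and carcinoma cells overlapped between the groups. Summed T cell markers were 419 to 919.3 in KO and 250.3 to 558.2 in WT, with 8 of 8 higher. Summed natural killer markers were 304.8 to 443.5 and 211.1 to 327.2, with 3 of 6 higher, and macrophage and monocyte markers were higher in 6 of 6, with sums of 26365 to 45244 and 12293 to 49947. Carcinoma markers were lower in 5 of 5, with sums of 11268 to 15573 in KO and 15243 to 24984 in WT and a median of -0.72. No marker was at 0 in all libraries, and 3 natural killer and 2 T cell markers lie on chromosomes 6 and 14. Their part in the difference was not tested, and in whole tumours fewer cells of a type and less RNA per cell cannot be told apart.

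Other lists of chromosome 6 were higher in most of their members, in some by a smaller share than the 81.3% of all members. Of the glycolysis and housekeeping genes of chromosome 6, 14 of 15 members were higher, with a median of 0.29. Gapdh was at 18576 ± 4090 in KO and 14913 ± 3574 in WT (SD, n = 5), a difference of 0.35 ± 0.18 (SE), and the RNA-binding protein gene Hnrnpa2b1 at 5667 ± 319 and 5192 ± 303 (SD, n = 5), a difference of 0.15 ± 0.065 (SE). The ribosomal protein gene Rpl32 ran from 3858 in KO1 to 10915 in KO5 and from 2576 to 6886 in WT. The Hoxa cluster and its neighbours were higher in 9 of 9 members, by 0.021 to 0.33, and Skap2, a signalling adaptor, differed by 0.22 ± 0.18 (SE). For growth and cell cycle genes the count was 11 of 16 and the median 0.14. Met, the receptor for hepatocyte growth factor, differed by -0.097 ± 0.29 (SE) and the chromatin remodeller Chd4 by -0.0006 ± 0.34 (SE). The Gimap GTPases of lymphocytes were higher in 4 of 6, from Gimap8 at -0.45 to Gimap4 at 0.51. The caveolin, filamin and actin list was higher in 9 of 14, from -0.62 to 1.14, and its collagen gene Col1a2 differed by -0.040 ± 0.31 (SE).

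On chromosome 14 the proteasome and immunoproteasome list was higher in 10 of 10 members, by 0.095 to 0.45, with a median of 0.33. Psme1, a subunit of the proteasome activator, had 1758, 3070, 2261, 2813 and 2931 normalized counts in KO1 to KO5 and 1648, 1958, 1718, 2287 and 2008 in WT1 to WT5. Only KO1 and KO3 lay within the WT range, and the difference was 0.42 ± 0.15 (SE). Psme2, its partner, differed by 0.41 ± 0.26 (SE), and Psmc6, an ATPase of the proteasome base, by 0.42 ± 0.30 (SE). The granzyme and mast cell protease cluster had 3 members of 11 listed genes in the table, all of them granzymes. Gzmb and Gzmd were over the level in the KO mean only, so that their direction was fixed, and Gzme differed by 0.33 ± 0.49 (SE), or by 0.096 without WT5. Mast cell markers were lower in 4 of 5, with a median of -1.33 and sums of 139.7 to 579.4 in KO and 325 to 938 in WT, and their part in these values was not tested. Gzmb, a cytotoxic protease, had 29.5 to 327.4 in KO and 34.1 to 87.4 in WT, with KO5 high and KO3 below every WT library.

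The Rb1 region was higher in 14 of 15 members, with a median of 0.29, and its most abundant genes were Fndc3a (described above), Tpt1, a growth-related protein, at 0.35 ± 0.35 (SE) and Itm2b, a membrane protein, at 0.16 ± 0.16 (SE). With 1 library left out in turn, Fndc3a ran from 0.40 (without WT2) to 0.84 (without KO5), Tpt1 from 0.15 (without KO5) to 0.55 (without KO1) and Itm2b from 0.086 (without KO5) to 0.28 (without WT2). For the distal genes the count was 23 of 28 and the median 0.21, and the ubiquitin ligase gene Mycbp2, the splicing factor gene Mbnl2 and the importin gene Ipo5 differed by 0.31 ± 0.34, 0.21 ± 0.17 and 0.20 ± 0.17 (SE). Mycbp2 ran from 0.089 (without WT2) to 0.48 (without KO5), Mbnl2 from 0.14 (without WT4) to 0.35 (without WT5) and Ipo5 from 0.14 (without WT2) to 0.33 (without WT5). In all, 33 of 77 named genes moved by over 1.5 times when some library was left out. Of the 18 whose groups did not overlap, only Pibf1 did. These 18 are set apart by a gap in these same libraries, and a difference near 0 moves by a large ratio. Their steadier ratios follow in part from that and are no separate check. The highest value of the distal list was 1.54 for Acod1, the itaconate-producing enzyme of macrophages, named after its values were seen. Its WT3 value of 856.4 was above all KO libraries. The proximal list was higher in 20 of 21, with a median of 0.14. The ribonuclease cluster was higher in 3 of 3, and its Parp2, which responds to DNA breaks, differed by 0.33 ± 0.11 (SE) without overlap, and by 0.30 with overlap once GC and length were removed. The death and stress response list was split, with 7 of 13 higher and a median of 0.013, or 0.18 over the 12 members over the level in both groups, and included Clu, a secreted chaperone, at -0.46 ± 0.43 (SE).

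**Figure D5:**
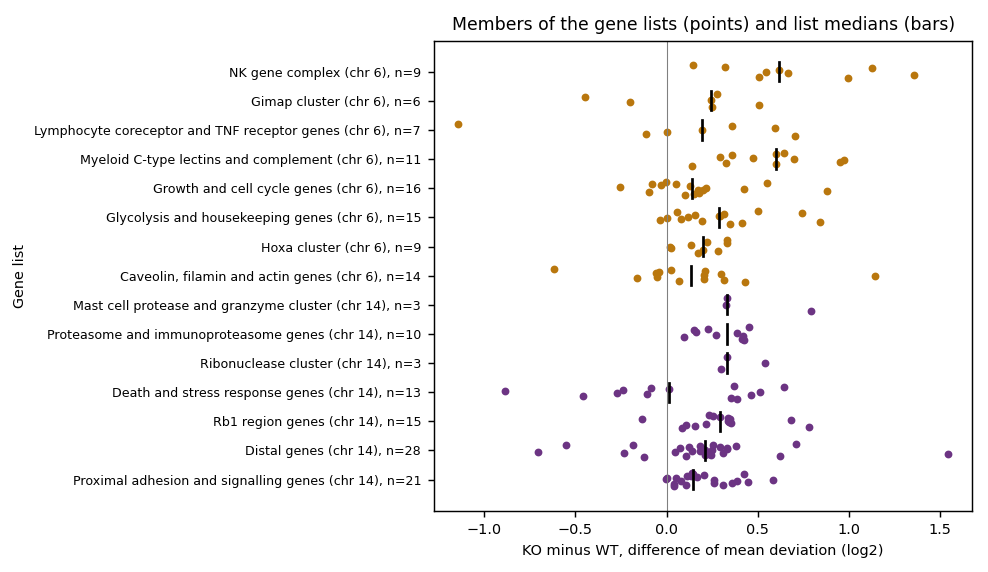
Difference of mean deviation (KO minus WT, log2, horizontal axis) of each member of the 15 gene lists, with points for genes and bars for list medians. The natural killer complex and the myeloid lectins have the highest medians, 0.61 and 0.60, and the death and stress response list the lowest, 0.013. These ranks rest in part on members past the level in the mean of 1 group only. Without such members the medians are 0.55, 0.60 and 0.18, and the caveolin, filamin and actin list is lowest at 0.136.

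The difference was seen in each level class of the members, while the classes below them had medians of -0.060 to 0.10. By level, the median gene difference on chromosome 6 was 0.18 at mean log2 6 to 8, 0.17 at 8 to 10 and 0.20 above 10, and on chromosome 14 it was 0.16, 0.19 and 0.22. Below the member level it was -0.060 and -0.052 at 3 to 5, where the other chromosomes were at -0.10. Just below it, at 5 to 6, the median was 0.10 on chromosome 6, -0.0002 on chromosome 14 and -0.026 elsewhere, and the libraries overlapped. The libraries did not overlap at 8 to 10 on both chromosomes and at 6 to 8 on chromosome 6. By GC content of the transcript (limits 46.25% and 52.61%), the median on chromosome 6 was 0.22 in the lowest class, then 0.18 and 0.11, and on chromosome 14 it was 0.20, 0.19 and 0.14, while the other chromosomes were at 0.039, -0.032 and -0.068. By transcript length the classes of chromosome 6 were at 0.19, 0.20 and 0.17, and those of chromosome 14 at 0.28, 0.16 and 0.19. Genes of other types at any level, which are no members, had medians of 0.35 over 310 genes on chromosome 6 and 0.31 over 88 on chromosome 14, against 0.15 elsewhere, with overlapping libraries on both.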

How the data were processed

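Total RNA from frozen tumour sections was freed of ribosomal RNA and sequenced, per the labels' protocols. The authors deposited gene-level signal values, which are normalized read counts, with 100% of values within 0.0001 of a whole number of reads once divided by the value of 1 read. Per the submitters' processing notes, bcl2fastq 2.17 made the base calls and GRCm38 was the genome build; the aligner, counter and use of strand are not given in the sources used here. Total reads in genes ran from 8609756 to 19934428 per library, and the precision of single values is limited by the spread between libraries. Symbols came from GENCODE M21 for 17953 of 18047 IDs, and 94 had none.

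Deviations, 15 Mb windows with at least 10 members, and medians were computed with Python 3.11.15 and pandas 2.3.3. GC content and length were each removed from the deviations with a cubic spline of 5 inner knots. Testing was limited to genes whose mean reached 10 normalized counts, with limma 3.58.1 (R 4.3.3, intensity trend, log2 of the count plus 1, Benjamini-Hochberg adjustment), and on recovered reads with edgeR 4.0.16 (quasi-likelihood) and DESeq2 1.42.0. Because 1 is added before the log, changes of genes with few counts come out too small. The gene-wise tests were checked on simulated data. A planned check of the knocked-out gene, and some genes the rule names, are not reported here. Named genes were up to 6 non-overlapping members per direction and chromosome with the largest differences, up to 3 of the highest level per list, and up to 4 per non-overlapping window. The members and lists were chosen with earlier results of these data known. Another gene overlaps exons of 30 of the 77 named genes, and for 15 it is protein-coding. All libraries carry batch label 1. Promoters came from RefSeq (GRCm38.p6).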

Additional observations from a re-analysis of the deposited data

Results flagged for a closer look

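In groups of 5 libraries, 18 of 194 tested sets held a library whose gap to its nearest neighbour was over 0.71 of the group's range, where chance marks about 1 in 20. The values are deviations on the log2 scale. Chromosome 14 as a whole had WT4 at -0.28, and so did its window chr14:15000001-30000000 with WT4 at -0.31. In chr14:1-15000000 KO3 was low at -0.066, and in chr6:135000001-149563329 KO1 was high at 0.24. WT4 was also apart for Pibf1 at -1.25, Ttc5 at -0.76, Parp2 at -0.42 and Hoxa5 at 0.52. WT2, the library with the most skeletal muscle RNA, was apart for Cald1 at -0.75, Gimap8 at -1.04, Dok2 at 1.02, Psme2 at 0.39 and Tpi1 at 0.52. WT5 was apart for Mbnl2 at 0.47. Among KO libraries, KO3 was apart for Arhgap22 at 1.08 and Cald1 at -0.018, KO1 for Ttc5 at -0.10 and KO5 for Kcnk5 at -0.25.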

How the results depend on the processing

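In every setting run, both chromosome medians stayed above 0 without overlap of the libraries. Leaving out each library in turn, the chromosome 6 difference was 0.17 to 0.19, the chromosome 14 difference 0.16 to 0.21, and the number of windows without overlap 5 to 11. That number was 7 with all libraries, 3 of 16 without the listed genes, 15 in the prefixed libraries, 12 in the others, 11 with WT2 and WT5 averaged and 13 without WT2, WT3 and WT5. Fewer libraries make it easier not to overlap. The share over all windows was taken only with all libraries (4.44%) and with GC and length removed (6.11%). The counts of the other settings therefore have no background and cannot be set against these shares. The chromosome 6 difference was 0.14 in the prefixed libraries and 0.16 in the others, and the chromosome 14 difference 0.28 and 0.12. DESeq2 called 9 members where limma called 0. Replicate numbers did not pair the samples, with correlations from -0.26 to 0.64 and 1 of 5 best for its own number. With the replicate number as a block, limma called 0 members. The chromosome differences of 0.18 and 0.19 cannot change under this block, since each number has 1 KO and 1 WT library. Single windows moved by more than their spread in 15 of 396 repeats and named genes in 57 of 1774. All of these moves came with only the prefixed libraries, only the others, or without WT2, WT3 and WT5. The gene repeats include settings that change only the windows or their summary and so cannot move a gene. These shares are therefore no measure of stability.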
